A study of Mus musculus with 2 samples.

Results

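The genes described here build and serve the primary cilium of the kidney tubule, are known from cystic kidney disease, or encode the kinesin and dynein motors that move along microtubules. They were chosen by symbol alone: those starting with Ift and a number, Bbs, Nphp, Nek, Pkd and a number, Kif, Dnah, Dnal or Dync, plus Pkhd1, Invs, Ofd1, Cys1, Bicc1, Tsc1, Tsc2, Tmem67, Mks1 and Arl13b. The platform annotation names 10208 genes, and 56 of them met this rule, on 57 probes. Of the 10 genes listed singly, Tmem67, Mks1 and Arl13b had no named probe, and 9940 probes of the array are unnamed here.

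Total kidney RNA of 1 Mxi1 -/- mouse (the experiment) was compared with that of 1 Mxi1 +/+ mouse (the control), on 1 single-colour array each. Both samples carry the label 1Y, and no strain, sex or further allele is given. The Mxi1 protein pairs with MAX and counters MYC at DNA sites that both use, and the study asks which expression pattern goes with its loss. A single mouse stood for each genotype, so nothing could be set against the spread between animals, and each difference is that between these 2 arrays, without a p-value or a standard error.

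A primary cilium stands on the lumen side of most tubule cells and is built by intraflagellar transport: kinesin-2 carries protein trains to the tip and dynein-2 carries them back. The BBSome moves membrane proteins along with these trains. Loss of many of the proteins involved is known to cause cysts in mouse and human kidneys, and other kinesins and dyneins move cargo in the cytoplasm or chromosomes in mitosis.

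All values are linear probe intensities in arbitrary units, and levels of different probes are not compared. The noise floor, 3 times the root mean square of an array's values below 0, came to 0.156 in the Mxi1 -/- array and 0.102 in the Mxi1 +/+ array. A log2 difference is Mxi1 -/- minus Mxi1 +/+ after each array was centred on its median. Among the 56 members, 48 read above the floor in both arrays, 5 read above it in 1 array only and have a bound in place of a fold, and 3 have no fold. Of these 3, Kif20a and Kif5a lay under the floor in both arrays. Dync1i1 lay above it in Mxi1 +/+ only, at a value too low to give a bound. The median level below is the median over all probes of the mean of both arrays, and 29 members lay at or above it. The only error available is technical. Where a gene had 2 probes, their log2 differences varied with a standard deviation of 0.167 per probe in 41 such genes at or above that level, and of 0.959 in 40 such genes under it. No noise floor was applied to those probes. Over the 2998 genes under that level but above the floor in both arrays, the log2 differences had a standard deviation of 0.607. Lying within 0.959 is thus usual for such genes.

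Mxi1 itself lay in the direction of the labels. It read 1.69 in the Mxi1 -/- kidney and 4.31 in the Mxi1 +/+ kidney, a 2.54-fold lower value, and which part of the gene was deleted is not given. Of the 14 kidney epithelial markers listed, 10 had a named probe and all 10 lay at or above the median level, with log2 differences between -0.28 and 0.31. No member shares chromosome 19 with Mxi1.

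Most members differed little. Among these 29 members, 26 differed by less than 1.5-fold between the 2 kidneys, 2 were at least 1.5-fold lower (6.90%) and 1 was at least 1.5-fold higher (3.45%) in Mxi1 -/-. Over all 5737 genes at that level the shares were 5.26% lower and 2.41% higher, so the members' counts are near the background. At 2-fold, 1 member was higher and none lower, against 0.558% and 1.39% of those genes. The median log2 difference was -0.14 over the 29 members and -0.06 over the 5737 genes. Lower readings made up 19 of the 29 (65.5%), where 59.9% of all genes at that level read lower.

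**Figure D1:**
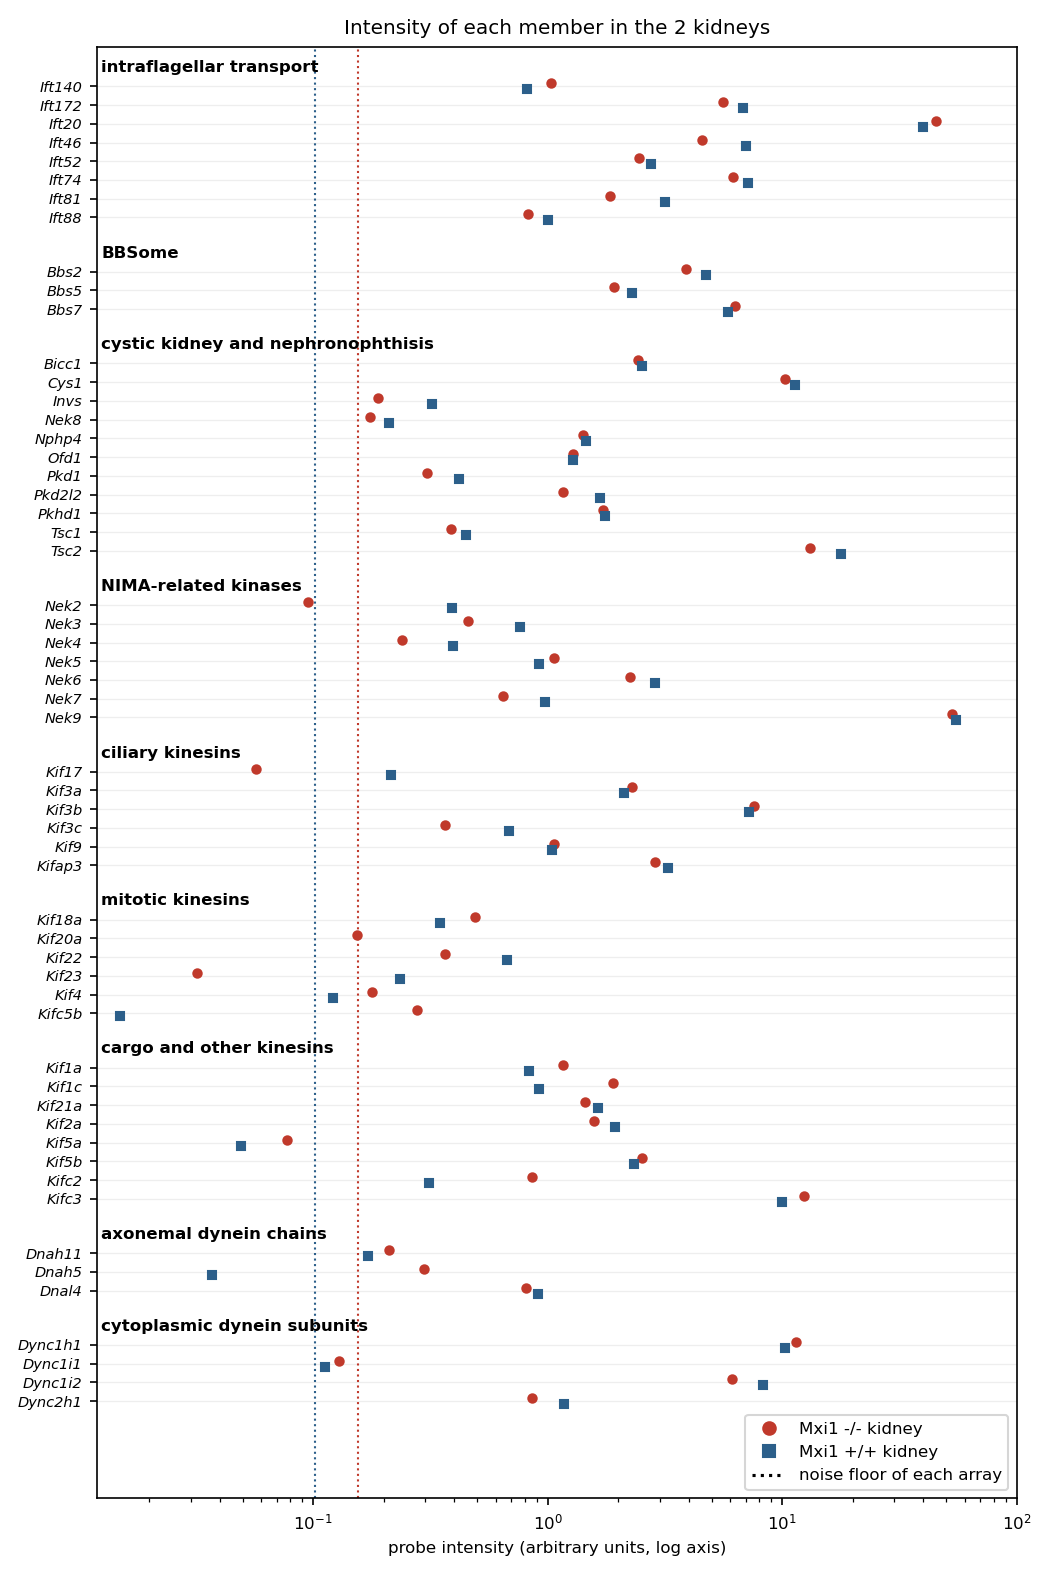
Probe intensity (log axis, arbitrary units) of the 56 members by role, with Mxi1 -/- as red circles and Mxi1 +/+ as blue squares, 1 array each. Dotted lines mark the noise floors of 0.156 (Mxi1 -/-) and 0.102 (Mxi1 +/+), most pairs lie close together, and the Mxi1 +/+ value of Kif20a, -0.03, cannot be drawn on a log axis.

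At or above the median level, both members that were at least 1.5-fold lower were genes of intraflagellar transport. Under that level 5 more members above the floor were at least 1.5-fold lower, none of them from this group. All 8 that were named on the array read above the floor in both kidneys, 6 lower and 2 higher in Mxi1 -/-. Of all 8735 genes above the floor in both, 4826 read lower. Ift81, which binds tubulin together with Ift74, read 1.84 in the Mxi1 -/- kidney and 3.18 in the Mxi1 +/+ kidney. This 1.73-fold lower value (log2 -0.79) was larger in size than the differences of 96.3% of genes at that level. Ift46, a core subunit of the same IFT-B complex, read 4.56 in Mxi1 -/- and 6.997 in Mxi1 +/+, which is 1.53-fold lower (log2 -0.62). Ift46 passed the 1.5-fold line by little and lay inside it after quantile normalization (log2 -0.56) or lowess on level (log2 -0.56). With the array median added to every intensity, Ift81 (log2 -0.55) and Ift46 (log2 -0.52) both lay inside the line.

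The other IFT-B subunits were closer together. Ift172, a subunit at the edge of the complex, read 5.57 in Mxi1 -/- and 6.79 in Mxi1 +/+ (log2 -0.28). Ift74 read 6.19 and Ift52 read 2.45 in Mxi1 -/-, against 7.13 and 2.77 in Mxi1 +/+ (log2 -0.20 and -0.18). Ift88, which is disrupted in the Oak Ridge polycystic kidney mouse, read 0.825 in Mxi1 -/- and 1.00 in Mxi1 +/+ (log2 -0.28), under the median level. Ift20, a subunit that is also found at the Golgi, went the other way with 45.1 in Mxi1 -/- and 39.9 in Mxi1 +/+ (log2 0.18). Of the 6 IFT-B subunits at or above the median level 5 read lower, where 59.9% of all genes did. The differences of Ift52, Ift74 and Ift20 were about the size of the standard deviation per probe, 0.167. The only IFT-A subunit with a named probe, Ift140, read 1.04 in Mxi1 -/- and 0.815 in Mxi1 +/+ (log2 0.35), also under the median level.

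The BBSome was represented by 3 subunits, all at or above the median level and none 1.5-fold apart. Bbs2 read 3.90 in Mxi1 -/- and 4.72 in Mxi1 +/+ (log2 -0.27). Bbs5 read 1.93 in Mxi1 -/- and 2.29 in Mxi1 +/+ (log2 -0.25). Bbs7, which sits beside Bbs2 in the complex, read 6.30 in Mxi1 -/- and 5.90 in Mxi1 +/+ (log2 0.10).

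Promoters were read to see which members carry the letters bound by MYC, MAX and MXD proteins or by the ciliary RFX factors. RefSeq windows (GRCm38.p6) from 250 bases before to 50 bases after a gene start were given for 48 of the 56 members, as 55 windows. The E-box CACGTG stood in 2 of the 48 members (4.17%), Bbs7 and Kif1a, and in 8.09% of the 27025 genes with a window. An arm of the X-box was searched as GTTGCCA on either strand, and other spellings of it were not searched. GTTGCCA stood in 8 of the 48 (16.7%), against 5.02% of all genes and 4.19% of the 8207 genes named on the array. CCAAT stood in 39.6% of the members and 41.1% of all genes, and TTTGAA, the letters of the cell cycle element called CHR, in 14.6% of the members and 20.2% of all genes. The members' windows had a median GC content of 59.7%, against 58.0% over windows of genes named on the array and 52.7% over all windows. These matches are descriptions of letters and not of binding.

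The X-box windows are shown because this was the only one of the 4 motifs with a higher share among the members than among all genes. Each is read on the strand that holds the motif, with GTTGCCA in capitals.
Ift88 (chr14:57424076-57424105, minus strand): gcccagccGTTGCCAggcgcgactccaagg
Dync2h1 (chr9:7177009-7177038, plus strand): actcagcaGTTGCCAagctccgtcgctatg
Kif9 (chr9:110476959-110476988, plus strand): ggcttcctGTTGCCAtggcgactgtgtaca
Nphp4 (chr4:152478135-152478164, plus strand): gcatcccgGTTGCCAgctgatgttgggctg
Nek5 (chr8:22125213-22125242, minus strand): agctacagGTTGCCAactctcagaccaata
Kif2a (chr13:107022065-107022089, plus strand): gccGTTGCCAtcacctcatccggag
Kif18a (chr2:109280660-109280689, plus strand): ccgcgcgcGTTGCCAcggcgacgcccagga
Kif23 (chr9:61946864-61946893, minus strand): gcccttggGTTGCCAaggagacgagcgccc

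Their readings did not go 1 way. Nek5, Kif9 and Kif18a read higher in Mxi1 -/-, and Ift88, Dync2h1, Nphp4, Kif2a and Kif23 read lower. The letters also stand in promoters of both ciliary and mitotic members.

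The 250 bases before the start of Bbs7 and of Ift46 show a member with the E-box and the IFT-B member at least 1.5-fold lower that has a window. Both are printed on the gene's strand, with CACGTG in capitals.
Bbs7 (chr3:36613390-36613639, minus strand): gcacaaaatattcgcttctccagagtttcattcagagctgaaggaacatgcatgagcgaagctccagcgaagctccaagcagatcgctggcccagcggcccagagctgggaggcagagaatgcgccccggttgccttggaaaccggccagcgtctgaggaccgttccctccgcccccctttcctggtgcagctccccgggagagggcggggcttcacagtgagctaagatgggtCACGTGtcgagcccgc
Ift46 (chr9:44772759-44773008, plus strand): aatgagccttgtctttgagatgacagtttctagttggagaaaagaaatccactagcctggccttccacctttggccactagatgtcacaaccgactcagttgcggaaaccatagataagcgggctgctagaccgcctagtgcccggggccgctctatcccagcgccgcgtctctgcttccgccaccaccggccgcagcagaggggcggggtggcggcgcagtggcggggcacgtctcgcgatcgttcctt

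In Bbs7 the E-box begins 16 bases before the start. The Bbs7 stretch also holds gttgcct, which the search for GTTGCCA does not count. Of the 4 motifs searched, none lies in the Ift46 window.

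Genes of cystic kidney disease and nephronophthisis read close together. All 11 with a named probe were above the floor in both kidneys, and 10 read lower in Mxi1 -/-, where 4826 of all 8735 such genes did. The 10 include Pkd2l2, which was placed in this group by its symbol and whose 2 probes disagreed. None of the 7 at or above the median level was 1.5-fold apart. Their median log2 difference at that level was -0.05, against -0.06 over all genes. Tsc2, whose product tuberin restrains mTORC1 through Rheb, read 13.1 in Mxi1 -/- and 17.7 in Mxi1 +/+, which is 1.36-fold lower (log2 -0.44). Its partner Tsc1 read 0.387 in Mxi1 -/- and 0.447 in Mxi1 +/+ (log2 -0.21), under the median level.

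The next 5 genes each differed by less than 0.167, the standard deviation per probe at or above the median level. Pkhd1, which encodes fibrocystin, read 1.71 in Mxi1 -/- and 1.75 in Mxi1 +/+ (log2 -0.03). Cys1, whose product cystin is lost in the cpk mouse, read 10.3 in Mxi1 -/- and 11.4 in Mxi1 +/+ (log2 -0.14). Bicc1, an RNA-binding protein whose loss gives cysts in mice, read 2.44 in Mxi1 -/- and 2.53 in Mxi1 +/+ (log2 -0.05). Nphp4, a protein of the transition zone at the base of the cilium, read 1.41 in Mxi1 -/- and 1.45 in Mxi1 +/+. Ofd1, a centriole protein, read 1.29 in Mxi1 -/- and 1.28 in Mxi1 +/+. The direction of Ofd1 turned after the higher noise floor of 6 times the root mean square, to a log2 difference of -0.0019.

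Dimmer cystic genes read lower with wide technical error. Pkd1, which encodes polycystin-1, read 0.306 in Mxi1 -/- and 0.417 in Mxi1 +/+ (log2 -0.45). Invs, which encodes inversin, read 0.189 in Mxi1 -/- and 0.323 in Mxi1 +/+, which is 1.70-fold lower, and Nek8, the gene of the jck cystic mouse, read 0.175 in Mxi1 -/- and 0.210 in Mxi1 +/+. These 3 differences are smaller than 0.959, the standard deviation per probe of dim genes, for which no noise floor was applied. Pkd2l2, a relative of polycystin-2, is the only member with 2 probes, and these disagreed. The brighter read 1.16 in Mxi1 -/- and 1.67 in Mxi1 +/+ (log2 -0.52), while the dimmer read 0.159 in Mxi1 -/- and 0.0744 in Mxi1 +/+, the second value under its floor. Averaging both gave a log2 difference of 0.29, so the direction of Pkd2l2 is not settled.

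**Figure D2:**
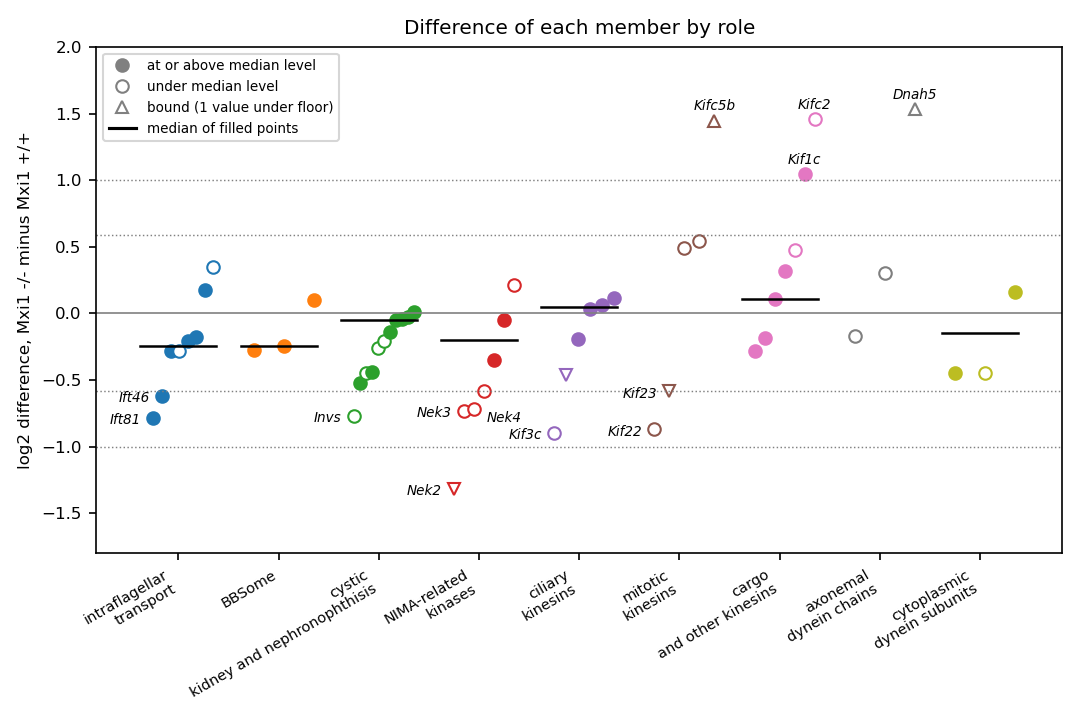
Log2 difference, Mxi1 -/- minus Mxi1 +/+, of each member with a fold or bound, by role. Filled points lie at or above the median level, hollow points under it, triangles are bounds, black bars are medians of the filled points, and dotted lines mark 1.5-fold and 2-fold. Ift81, Ift46 and Kif1c are the filled points beyond 1.5-fold.

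Kinesin-2 is the motor that carries trains toward the ciliary tip, and its subunits Kif3a, Kif3b and Kifap3 lay less than 1.5-fold apart. Its motor subunit Kif3a read 2.28 in Mxi1 -/- and 2.11 in Mxi1 +/+ (log2 0.11). The second motor subunit Kif3b read 7.56 in Mxi1 -/- and 7.25 in Mxi1 +/+ (log2 0.06). The accessory subunit Kifap3 read 2.86 in Mxi1 -/- and 3.26 in Mxi1 +/+ (log2 -0.19). Kif9, a kinesin of motile cilia, read 1.07 in Mxi1 -/- and 1.04 in Mxi1 +/+. Of the dimmer members of this group, Kif3c, an alternative partner of Kif3a, read 0.366 in Mxi1 -/- and 0.683 in Mxi1 +/+, which is 1.87-fold lower. Kif17, a second ciliary kinesin, read 0.0570 in Mxi1 -/- (under the floor) and 0.215 in Mxi1 +/+, at least 1.38-fold lower.

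Cytoplasmic dynein gave mixed readings. The heavy chain of dynein-1, Dync1h1, read 11.5 in Mxi1 -/- and 10.3 in Mxi1 +/+ (log2 0.16). Its intermediate chain Dync1i2, which links the motor to dynactin, read 6.08 in Mxi1 -/- and 8.32 in Mxi1 +/+, which is 1.37-fold lower (log2 -0.45). The heavy chain of the ciliary dynein-2, Dync2h1, read 0.859 in Mxi1 -/- and 1.17 in Mxi1 +/+ (log2 -0.45), just under the median level. The neuronal intermediate chain Dync1i1 read 0.129 in Mxi1 -/- (under the floor) and 0.113 in Mxi1 +/+, and has no fold. The heavy chain and intermediate chain of dynein-1 thus lay on opposite sides of 0.

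Axonemal dyneins, which drive motile cilia, were dim. Dnah11 read 0.211 in Mxi1 -/- and 0.171 in Mxi1 +/+. Dnah5 read 0.296 in Mxi1 -/- and 0.0370 in Mxi1 +/+, where it lay under the floor, so it was at least 2.89-fold higher. Dnal4, a dynein light chain, read 0.805 in Mxi1 -/- and 0.905 in Mxi1 +/+. Of the 14 markers listed for multiciliated cells 8 had a named probe and 7 were measured, among them Tekt1, which lay under the floor in both arrays. The 7 together summed to 57.6 in Mxi1 -/- and 43.9 in Mxi1 +/+, of which Hydin alone made up 53.9 in Mxi1 -/- and 40.1 in Mxi1 +/+. The part of such cells in the Dnah5 reading was not tested.

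Counting only the members that reached the median level, the one furthest above the control kidney was a cargo kinesin. Kif1c, a fast motor of organelle and Golgi traffic, read 1.90 in Mxi1 -/- and 0.921 in Mxi1 +/+ (2.06-fold higher, log2 1.05). Its rank was 32 from the top of the 5737 genes at that level. It reached the median level through the Mxi1 -/- array, at 1.86 times that array's median, against 0.902 times the median in Mxi1 +/+, and it is the only member behind the higher counts at 1.5-fold and 2-fold. Adding the array median to every intensity, a step that by itself narrows differences, its log2 difference was 0.59. Kif1c rests on 1 probe per array. The neuronal relative Kif1a read 1.16 in Mxi1 -/- and 0.834 in Mxi1 +/+ (log2 0.47), just under the median level.

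Minus-end motors of the same group also read higher. Kifc3, known from apical transport and cell junctions in epithelia, read 12.4 in Mxi1 -/- and 9.98 in Mxi1 +/+ (1.25-fold higher, log2 0.32). Kifc2, known from neurons, read 0.855 in Mxi1 -/- and 0.312 in Mxi1 +/+ (2.74-fold higher), the only measured member under the median level whose difference exceeded 0.959. Kif5b, the heavy chain of conventional kinesin, read 2.52 in Mxi1 -/- and 2.33 in Mxi1 +/+ (log2 0.11), and its neuronal relative Kif5a read 0.0772 in Mxi1 -/- and 0.0492 in Mxi1 +/+, both under the floor. Kif2a, which takes microtubules apart at their ends, read 1.58 in Mxi1 -/- and 1.93 in Mxi1 +/+ (log2 -0.29). Kif21a, which slows microtubule growth, read 1.45 in Mxi1 -/- and 1.65 in Mxi1 +/+ (log2 -0.18). Over all kinesins at or above the median level, 6 of 9 read higher, with a median log2 difference of 0.06, whereas 40.1% of all genes at that level read higher.

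Kinesins of mitosis all lay under the median level. Kif22, a motor bound to chromosomes, read 0.365 in Mxi1 -/- and 0.669 in Mxi1 +/+, which is 1.83-fold lower. Kif18a, which aligns chromosomes, read 0.491 in Mxi1 -/- and 0.349 in Mxi1 +/+, and the chromosome motor Kif4 read 0.178 in Mxi1 -/- and 0.122 in Mxi1 +/+. Kif23, a motor of the central spindle, read 0.0318 in Mxi1 -/- (under the floor) and 0.234 in Mxi1 +/+, at least 1.502-fold lower. Kifc5b, whose probe may not separate it from close relatives, read 0.278 in Mxi1 -/- and 0.0150 in Mxi1 +/+, under the floor, at least 2.72-fold higher. Kif20a lay under the floor in both arrays, at 0.153 in Mxi1 -/- and -0.03 in Mxi1 +/+. The directions within this group were thus mixed.

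NIMA-related kinases act at centrosomes, spindles and cilia. Of the 8 symbols starting with Nek, Nek8 included, 6 of the 7 above the floor in both arrays read lower in Mxi1 -/-. Of all 8735 genes above the floor in both, 4826 read lower. Nek9, which activates Nek6 and Nek7 in mitosis, read 53.1 in Mxi1 -/- and 55.2 in Mxi1 +/+ (log2 -0.05). Nek6 read 2.24 in Mxi1 -/- and 2.86 in Mxi1 +/+ (log2 -0.35), and Nek7 read 0.648 in Mxi1 -/- and 0.970 in Mxi1 +/+ (log2 -0.58). Nek3 and Nek4 read 0.456 and 0.240 in Mxi1 -/-, against 0.760 and 0.395 in Mxi1 +/+, and lay 1.66-fold and 1.65-fold lower. Nek2, which separates centrosomes, read 0.0952 in Mxi1 -/- (under the floor) and 0.390 in Mxi1 +/+, at least 2.50-fold lower. Nek5 was the exception at 1.06 in Mxi1 -/- and 0.920 in Mxi1 +/+ (log2 0.21). Only Nek6 and Nek9 lay at or above the median level, where 59.9% of all genes read lower. The other 5 above the floor differed by less than 0.959, the standard deviation per probe of dim genes taken without a noise floor. Under the higher noise floor of 6 times the root mean square, values below it were raised to it. Nek8 turned there to a log2 difference of 0.56 because its Mxi1 -/- value of 0.175 was raised, which is not a reversal of its readings.

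Set against the technical error, few members stood clear. At or above the median level 6 members were lower and 1 was higher by more than 2 standard deviations per probe, or 0.334 on the log2 scale. The lower ones were Ift81, Ift46, Pkd2l2, Dync1i2, Tsc2 and Nek6, and the higher one was Kif1c. Kif1c reached the median level only through the Mxi1 -/- array. In Mxi1 +/+ it lay at 0.902 times the array median, and genes under the median level had the wider standard deviation per probe of 0.959. The direction of Pkd2l2 is not settled, since its own probes disagreed. Over all genes at that level 16.5% were lower and 7.63% higher by as much. Among the 19 dimmer members above the floor, 12 read lower and 7 higher, where 46.3% of 2998 such genes read lower and 53.7% higher. At least 1.5-fold, 5 of the 19 were lower and 1 was higher (26.3% and 5.26%), against 11.9% and 17.2% of those genes. At 2-fold none of the 19 was lower and 1, Kifc2, was higher, against 3.54% and 6.67%. Of the 19, 18 differed by less than 0.959, the standard deviation per probe of dim genes. That value was taken without a noise floor and exceeds the 0.607 standard deviation of the 2998 genes, so it says little about these 18.

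**Figure D3:**
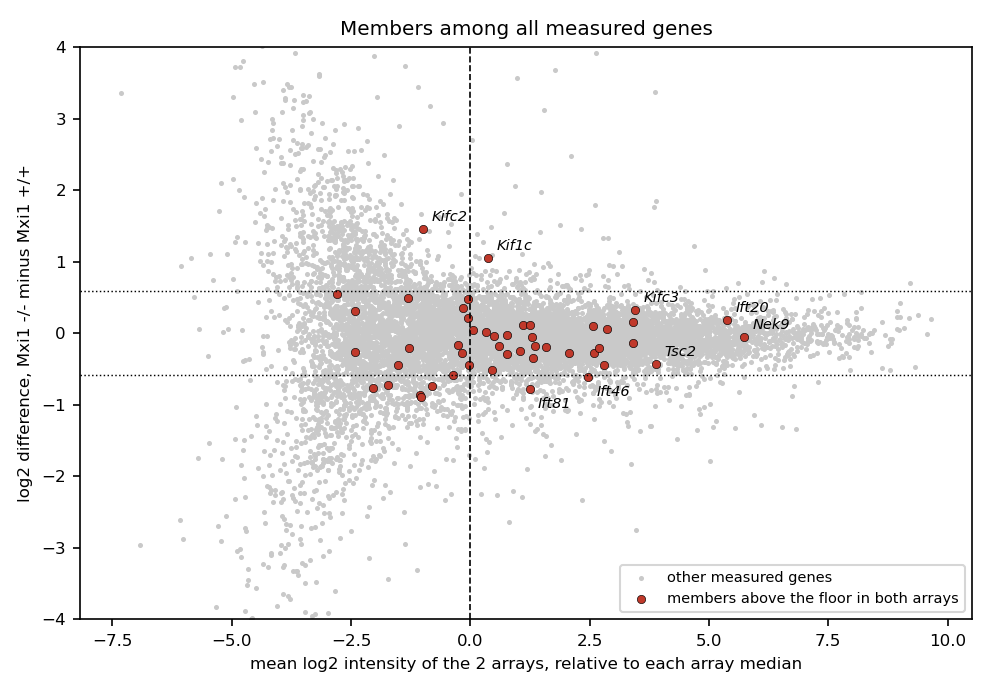
Log2 difference against mean log2 intensity of both arrays, relative to each array's median, for all measured genes (grey) and the 48 members above the floor in both arrays (red). The dashed line is the median level and dotted lines mark 1.5-fold. Members lie within the cloud of all genes, which widens to the left, and 58 genes with a difference over 4 in size are outside the plotted range.

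Genes that work with the members were read from lists of the same pathways. Of 12 dynactin subunits and dynein adaptors, all at or above the median level, 6 read lower and 6 higher in Mxi1 -/-, none by 1.5-fold, with a median log2 difference of 0.01. Of 7 kinesin light chains and adaptors at that level, 3 read lower and 4 higher. Among them Mapk8ip3, the JIP3 adaptor of kinesin-1, read 2.77 in Mxi1 -/- and 1.82 in Mxi1 +/+ (1.52-fold higher). Of 13 centrosome and basal body genes at that level, 9 read lower, with a median of -0.11. Over all genes at that level 59.9% read lower, with a median of -0.06. Cetn3, a centrin of centrioles, read 2.31 in Mxi1 -/- and 4.92 in Mxi1 +/+, which is 2.12-fold lower, and its relative Cetn2 read 3.56 in Mxi1 -/- and 4.77 in Mxi1 +/+.

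Pathways that signal through or beside the cilium were mixed. Of 5 Hedgehog genes at or above the median level 4 read higher, where 40.1% of all genes at that level did. Gli1, the transcription factor that is also a target of the pathway, read 7.77 in Mxi1 -/- and 4.23 in Mxi1 +/+ (1.84-fold higher). Over the 10 Hedgehog genes above the floor in both arrays, dim ones included, 8 read higher, where 3909 of all 8735 such genes did. Of the 8, Tulp3 (log2 0.005) and Gli3 (log2 0.03) hardly differed. Among the dim ones Hhip and Ptch1, both targets of the pathway, read 0.231 and 0.330 in Mxi1 -/-, against 0.110 and 0.405 in Mxi1 +/+. Of 10 genes of the mTOR pathway at that level 4 read lower and 6 higher. Eif4ebp1, a translation repressor that mTORC1 inhibits, read 4.70 in Mxi1 -/- and 7.23 in Mxi1 +/+, which is 1.54-fold lower. Rheb, the target of Tsc2, read 71.7 in Mxi1 -/- and 58.4 in Mxi1 +/+ (log2 0.30). Differences larger than that of Rheb were also seen in Stk11 (log2 -0.48), Deptor (log2 0.47) and Eif4ebp2 (log2 0.33).

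Of 14 mitosis and spindle genes above the floor in both arrays 10 read lower, where 4826 of all 8735 such genes did. Of the 14, 3 lay at or above the median level, with Cenpa at 1.51 in Mxi1 -/- and 1.08 in Mxi1 +/+. The summed intensity of the 16 measured was 11.5 in Mxi1 -/- and 11.7 in Mxi1 +/+. Of 4 ciliogenesis and tubulin genes at or above the median level, 2 read lower and 2 higher. None was 1.5-fold apart.

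**Figure D4:**
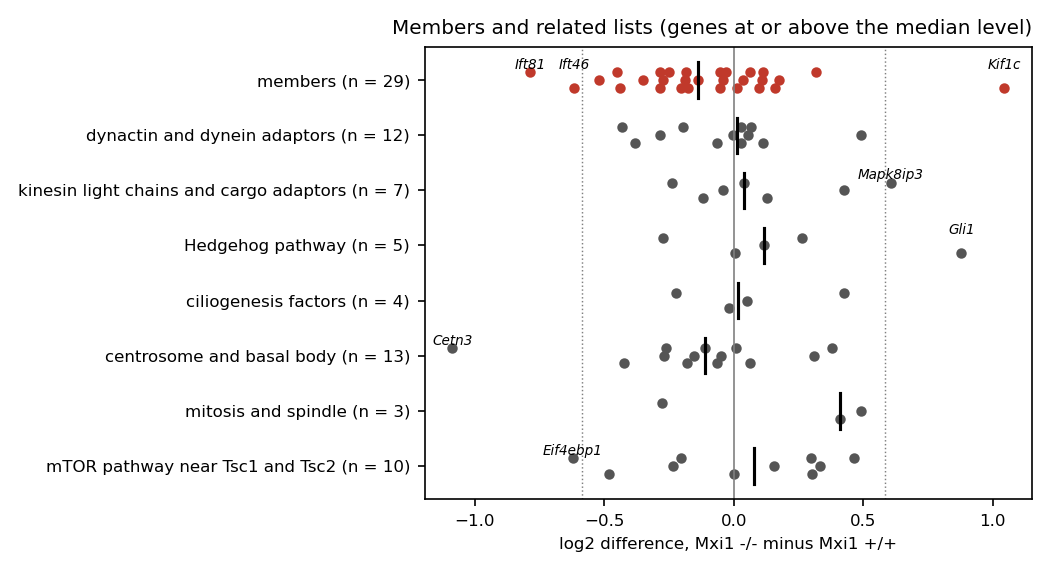
Log2 difference, Mxi1 -/- minus Mxi1 +/+, of each gene at or above the median level among the members (red) and in 7 related lists (grey), with black bars at the medians and dotted lines at 1.5-fold. The 29 members centre at -0.14, and the list medians run from -0.11 for centrosome genes to 0.41 for the 3 mitosis genes.

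The kidneys also differed in markers of other cell types. The 9 measured adipocyte markers summed to 90.0 in Mxi1 -/- and 262 in Mxi1 +/+. Of these sums, Fabp4 alone made up 72.1 in Mxi1 -/- and 183 in Mxi1 +/+. All 8 at or above the median level read lower, 7 of them at least 1.5-fold, while Lep hardly differed (4.83 in Mxi1 -/- and 4.86 in Mxi1 +/+). The 11 measured markers of stratified epithelium and urothelium summed to 20.1 in Mxi1 -/- and 45.4 in Mxi1 +/+. Of the 8 at or above the median level 7 read lower, 6 of them at least 1.5-fold. Upk1b read 10.0 in Mxi1 -/- and 9.77 in Mxi1 +/+, and Upk2 read 1.47 in Mxi1 -/- and 1.94 in Mxi1 +/+. Krt20 read 1.11 in Mxi1 -/- and 1.88 in Mxi1 +/+, and Krt5 read 0.684 in Mxi1 -/- and 3.30 in Mxi1 +/+. The dim Krt14 and Krt15 lay less than 1.5-fold apart. The 11 measured lymphoid and myeloid markers summed to 52.5 in Mxi1 -/- and 37.6 in Mxi1 +/+. Of these sums, Ctss and the 3 C1q genes of macrophages made up 45.3 in Mxi1 -/- and 30.4 in Mxi1 +/+. The other 7 markers summed to 7.25 in Mxi1 -/- and 7.19 in Mxi1 +/+ and went both ways. Ptprc, Itgam and Ms4a1 read 0.136, 0.121 and 0.126 in Mxi1 -/-, all under the floor, and 0.448, 0.255 and 0.217 in Mxi1 +/+. Cd79a (4.22 in Mxi1 -/- and 4.07 in Mxi1 +/+), Cd79b and Cd3d read higher, and Cd3e hardly differed. No list had all its markers under the floor. The part of these cells in the members' differences was not tested, and in RNA of whole kidney fewer cells of a type and less RNA per cell cannot be told apart.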

How the data were processed

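Biotin-labelled cRNA was made with a kit for CodeLink arrays, per the labels' protocols, and the authors deposited linear intensities of 20289 probes for each array. Which software, background correction and scaling produced them is not given in the sources used here. Entries of -9999 (39 values in Mxi1 -/-, 60 in Mxi1 +/+) were read as missing. Intensities were turned to log2 and centred on each array's median over the 19663 probes above 0 in both. The platform annotation named 10349 probes, all of whose gene IDs matched the RefSeq table (GRCm38.p6). Genes with several probes were read from the brightest, and 9985 genes were measured. The number of arrays limits the precision.

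Every member is named. The naming rule for other genes took those at or above the median level and at least 1.5-fold apart in the related lists. Cetn2, Ptch1, Hhip, Rheb, Stk11, Deptor, Eif4ebp2, Cenpa, Hydin and the markers named singly were added after their values were seen. Members, lists and settings were chosen with earlier results of these data known. No test was run. The procedure was tested on simulated data with 200 shifted genes. Alternatives were no centring, quantile normalization, lowess, a pseudocount, averaged probes, other level filters and a higher floor. Computation used NumPy 2.4.6 and pandas 2.3.3 under Python 3.11.15, with lowess from statsmodels 0.14.6 and plots from matplotlib 3.10.9.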

Additional observations from a re-analysis of the deposited data

How the results depend on the processing

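The median log2 difference of members at or above the median level stayed between -0.18 and -0.07 over the 9 alternatives. Counts moved with the setting. The number at least 1.5-fold lower, 2 as reported, was 1 after quantile normalization, lowess or a level filter at the 75th percentile, 0 with a pseudocount and 7 with the filter at the 25th percentile. The number at least 1.5-fold higher was 0 with the filter at the 75th percentile and 2 at the 25th. The number at least 2-fold higher was 0 with a pseudocount or the filter at the 75th percentile and 2 at the 25th. The number reading lower, 19 as reported, was 30 with the filter at the 25th percentile and 7 at the 75th. The level filters change how many members are counted, and a pseudocount shrinks differences by construction. Of the 29 members at or above the median level, 27 kept their sign under all 6 alternatives run on single genes, and Ofd1 and Pkd2l2 turned under 1 each. Among the 19 dimmer members, Nek8 turned, through its Mxi1 -/- value being raised to the higher floor. No paired analysis was possible because each genotype has 1 sample, and no replicate could be left out.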
